A study of Homo sapiens with 12 samples.

Results

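miR-375 was followed as 1 of the 501 miRNA assays of a SOX2 knock-down experiment, chosen by name as the assay hsa-miR-375. It was picked because its level was higher after SOX2 knock-down in both cell lines studied, so the difference between knock-down and control samples is given below as a description, with no test. MiRNAs had been measured by quantitative real-time PCR on a pair of TaqMan array cards, card A with 290 of the assays and card B with 211. The assay of miR-375 was on card A.

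The 12 samples came from 2 human embryonal carcinoma cell (hECC) lines, 2102Ep and NTera-2, which are grown from germ cell tumours and express the pluripotency factor SOX2. 2102Ep is known as a nullipotent line, which resists differentiation by retinoic acid, while NTera-2 is pluripotent. The authors state that 2102Ep can still be made to differentiate by loss of SOX2 or OCT4 or by sparse growth. The groups were 2102Ep siSOX2 (Silencer Select siRNA against SOX2), 2102Ep NC (the non-targeting Negative Control siRNA), NTera-2 siSOX2 and NTera-2 NC, each with 3 samples labelled as biological replicates. Cells were exposed to siRNA for 6 h and harvested 72 h after transfection, 2102Ep at passages 35 to 50 with Lipofectamine 2000 and NTera-2 at passages 40 to 50 with Lipofectamine RNAiMAX. All groups, controls included, were therefore transfected, line and transfection reagent cannot be told apart, and SOX2 itself was not analysed here, as the cards measured miRNAs and small control RNAs.

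A miRNA is cut from a hairpin precursor and loaded into an Argonaute protein, where its seed, bases 2 to 8, pairs with target messages and lowers their output. miR-375 is known above all from the endocrine pancreas. In mouse beta cells it is abundant and restrains insulin secretion, with the myotrophin message as a target, and mice without it have abnormal islets. It is also abundant in other endocrine and neuroendocrine cells.

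The mature strand that carries the old name miR-375 is now called miR-375-3p. It is shown together with its partner strand and its precursor, because the seed defines which messages it can pair with and because the assay reports this strand and not the hairpin. Sequences are from RefSeq (GRCh38.p14), 5′ to 3′. In the mature strands capitals mark the seed, and in the hairpin they mark miR-375-3p.
miR-375-3p: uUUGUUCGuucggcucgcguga
miR-375-5p: gCGACGAGccccucgcacaaacc
MIR375 hairpin: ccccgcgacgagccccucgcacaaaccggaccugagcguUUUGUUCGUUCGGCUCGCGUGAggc

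The hairpin gene MIR375 lies at chr2:219001645-219001708 on the minus strand, and miR-375-3p at chr2:219001648-219001669, which is bases 40 to 61 of the 64-base hairpin. No other gene of the RefSeq table overlapped it. CRYBA2, which codes for a lens crystallin, ended 8222 bases away at lower coordinates. The long non-coding RNA CFAP65-AS1 began 506 bases away at higher coordinates, and CFAP65, a gene of the sperm flagellum, 1137 bases away. Among 2370 human mature miRNA names in the table, the seed of miR-375-3p occurred in 1, its own.

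Levels were read as the threshold cycle Ct, the PCR cycle at which signal appears, so that more RNA gives a lower Ct, and a gap of 1 cycle stands for about a doubling, or 1 log2 unit. In 2102Ep siSOX2 samples miR-375 had raw Ct values of 22.26, 22.03 and 22.31, against 25.71, 25.97 and 26.08 in 2102Ep NC samples. The value of 22.31, for replicate 3, was read after that column had been set back by 1 row, while its dCt needed no such step. In NTera-2 siSOX2 samples raw Ct was 23.72, 23.73 and 23.74, against 26.73, 25.87 and 26.65 in NTera-2 NC samples. Every siSOX2 sample of a line lay above every NC sample of that line in RNA level. All 12 values lay far from 40 cycles, the Ct at which a reaction counts as without signal.

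The deposited dCt is raw Ct minus a constant per sample and card, which for card A was the average Ct of U6, a small nuclear RNA, and miR-16. dCt of miR-375 was 4.02, 4.11 and 3.87 in 2102Ep siSOX2 samples, against 7.44, 7.90 and 7.73 in 2102Ep NC samples. In NTera-2 siSOX2 samples it was 9.19, 8.82 and 9.12, against 11.70, 11.43 and 12.05 in NTera-2 NC samples. The groups of a line did not overlap, and the lowest siSOX2 level stood 3.33 cycles above the highest NC level in 2102Ep and 2.24 cycles in NTera-2 cells. Every siSOX2 sample lay above every NC sample for 13.9% of the 431 assays tested in 2102Ep and for 6.21% of the 451 tested in NTera-2 cells. Because miR-375 was chosen for this contrast, nothing is read from that share.

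**Figure D1:**
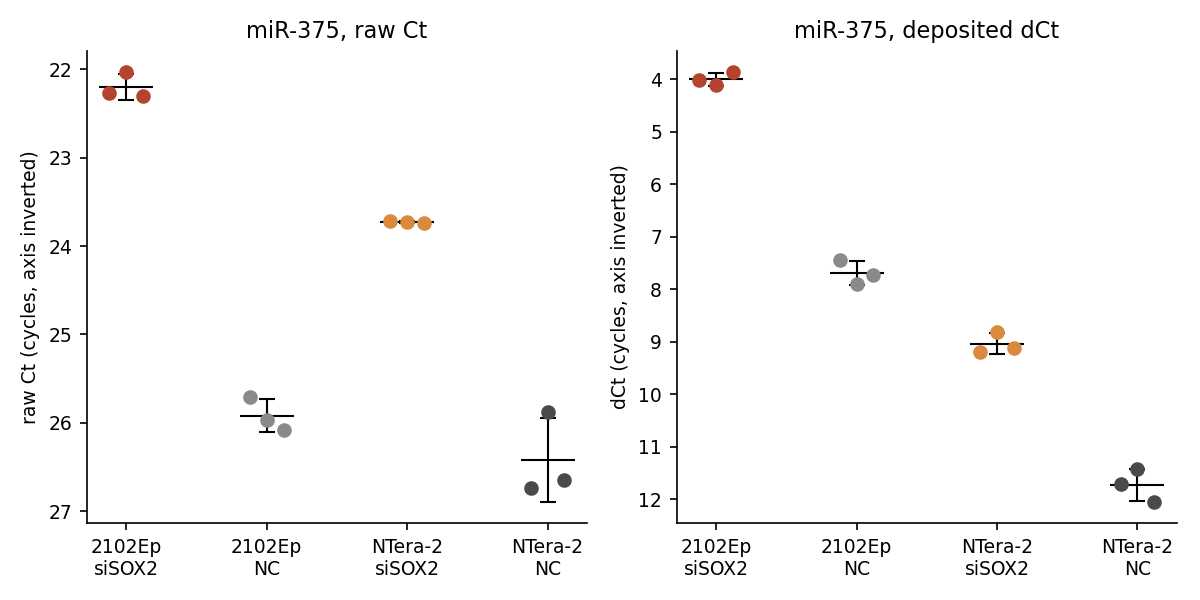
miR-375 per sample as raw Ct (left) and deposited dCt (right), in cycles with the axes inverted so that more RNA is higher. Points are samples, and the horizontal bars and whiskers are mean and SD (n = 3). By raw Ct both siSOX2 groups stand above both NC groups, whereas by dCt both 2102Ep groups stand above both NTera-2 groups.

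In 2102Ep cells dCt averaged 4.001 ± 0.12 after SOX2 knock-down and 7.69 ± 0.23 in NC (SD, n = 3 each), a difference of 3.69 on the log2 scale (SE 0.15), or 12.9-fold more miR-375. In NTera-2 cells it averaged 9.04 ± 0.20 after knock-down and 11.73 ± 0.31 in NC (SD, n = 3 each), a difference of 2.68 (SE 0.21), or 6.42-fold more. Samples of the same replicate number differed by 3.42, 3.79 and 3.86 in 2102Ep and by 2.51, 2.62 and 2.93 in NTera-2 cells. The mean response was 1.005 log2 units larger in 2102Ep than in NTera-2, which is a description, as miR-375 was chosen on these contrasts. The part of siRNA dose, reagent and remaining SOX2 mRNA, which differed between the lines, was not tested. By Western blot the paper detected no SOX2 protein after knock-down in either line. In bulk RNA, a larger share of cells that express miR-375 and more miR-375 per cell cannot be told apart.

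The assay was tight between replicates. The SD of its dCt was 0.12 in 2102Ep siSOX2 and 0.23 in 2102Ep NC, where the median assay had 0.37 and 0.31. In NTera-2 siSOX2 it was 0.20 and in NTera-2 NC 0.31, where the median assay had 0.31 and 0.44. In each group between 61.6% and 87.5% of the assays measured in all 3 samples were more variable. The raw Ct of NTera-2 siSOX2 samples differed by less still, with an SD of 0.01 cycles, against 0.47 cycles in NTera-2 NC samples.

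Among rises ordered by size, miR-375 held place 2 in both lines. Falls were left out of this order, and in NTera-2 cells some were larger, among them miR-639 at -6.09 (SE 2.18). In 2102Ep cells only miR-196b, a miRNA encoded in a HOX cluster, rose by more. Its dCt averaged 8.55 ± 0.29 in siSOX2 and 12.70 ± 0.31 in NC samples, a difference of 4.15. Below miR-375 came miR-143, known from smooth muscle, with a difference of 3.48 (SE 0.93), a dCt of 4.11 to 4.72 in the siSOX2 samples where it was measured and 6.15 to 9.11 in NC samples. The SE of miR-375 in the fit over all assays, 0.22, was smaller than that of either neighbour.

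In NTera-2 cells the assay above it was miR-342-5p, with a dCt of 8.17 to 10.11 in siSOX2 and 14.96 to 15.55 in NC samples, a difference of 6.12. The next assay below was miR-633, at a difference of 2.68 with an SE of 1.84, whose dCt ranged from 6.36 to 9.22 in siSOX2 and from 8.63 to 13.75 in NC samples. The groups of miR-633 overlapped, while those of miR-375 did not, so that the near-equal differences stood on unequal precision. With other references miR-375 held place 2 among rises in 2102Ep throughout and places 2 to 4 in NTera-2 cells.

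Among the 384 assays tested in both lines, miR-375 was the 1 assay that rose by over 2 log2 units in both. Rises over 1 log2 unit in both were found for 2 assays, and 6 assays had siSOX2 samples above NC samples without overlap in both lines. A rise over 2 log2 units was reached by 6 assays in 2102Ep cells, against 5 in NTera-2. Falls were left out of these counts. Some falls passed 1 log2 unit in both lines, among them miR-135b* (-1.53 for 2102Ep, -1.22 for NTera-2) and miR-522 (-1.06 for 2102Ep, -1.98 for NTera-2). The median assay differed by -0.003 in 2102Ep cells, and by -0.27 in NTera-2 cells. Relative to that median, miR-375 was higher by 2.95 in NTera-2 cells and by 3.69 in 2102Ep.

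**Figure D2:**
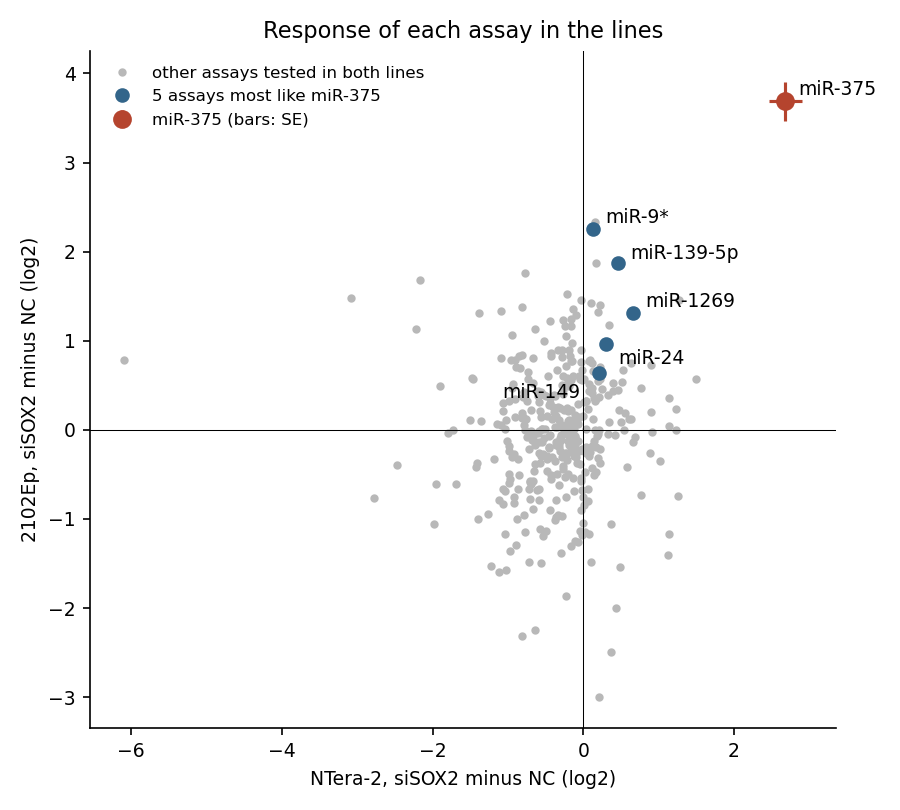
Difference between siSOX2 and NC samples on the log2 scale in NTera-2 (horizontal axis) and 2102Ep cells (vertical axis) for the 384 assays tested in both lines, with miR-375 (SE bars) and the 5 assays most like it marked. miR-375 stands alone in the upper right, at 2.68 on the horizontal and 3.69 on the vertical axis.

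The response of miR-375 rests on RNAs used as a reference, so these were followed too. U6 had a Ct of 14.90 ± 0.17 in 2102Ep siSOX2 and 14.89 ± 0.05 in 2102Ep NC samples, and 10.63 ± 0.20 in NTera-2 siSOX2 and 10.81 ± 0.18 in NTera-2 NC samples (SD, n = 3 each). miR-16, a miRNA found in most tissues, had a Ct of 21.50 ± 0.35 in 2102Ep siSOX2 and 21.56 ± 0.24 in 2102Ep NC samples, and 18.75 ± 0.20 in NTera-2 siSOX2 and 18.57 ± 0.45 in NTera-2 NC samples. Within a line the arms overlapped for both, and their mean differed by at most 0.19 cycles. The small nucleolar RNAs RNU44 and RNU48 had a Ct higher by 0.43 and 0.21 cycles in 2102Ep siSOX2 than in 2102Ep NC samples, and these arms overlapped as well.

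The difference of miR-375 between siSOX2 and NC samples changed little with the reference. In 2102Ep cells it ran between 3.66 with miR-16 alone and 4.04 with RNU44 and RNU48, and in NTera-2 cells between 2.50 with U6 alone and 2.89 with the global mean, the mean Ct of all assays of a card measured in every sample. With raw Ct and no reference it was 3.72 in 2102Ep and 2.69 in NTera-2 cells. It was larger in 2102Ep under every reference tried, by 0.79 to 1.46.

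The place of miR-375 among the measured assays was read over both cards and within its own card. When the assays of both cards were ranked by dCt, it held places 224 of 429, 222 of 420 and 213 of 431 in 2102Ep siSOX2 samples, against 337 of 430, 344 of 431 and 345 of 430 in 2102Ep NC samples. In NTera-2 siSOX2 samples it held places 198 of 451, 179 of 450 and 200 of 449, against 337 of 449, 328 of 450 and 361 of 451 in NTera-2 NC samples. By this ranking it stood close to the middle of the measured assays in both lines after knock-down, and far below it in NC samples.

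The cards carry different constants, and in 2102Ep far more so. They were 17.92 to 18.44 cycles on card A and 24.31 to 25.01 on card B of 2102Ep, and 14.44 to 15.03 on card A and 16.32 to 16.90 on card B of NTera-2. The constant of card B in 2102Ep could not be traced to a control RNA, and it lifts the card B assays of that line over miR-375 in a ranking by dCt. Within card A 76.6% ± 2.84 of the other measured assays stood below miR-375 in 2102Ep siSOX2 samples, against 33.3% ± 1.55 in 2102Ep NC samples (SD, n = 3 each). In NTera-2 siSOX2 samples the share was 66.8% ± 0.60, against 31.1% ± 4.32 in NTera-2 NC samples. Over both cards the shares were 48.6% ± 1.83 in 2102Ep siSOX2 and 20.6% ± 0.98 in 2102Ep NC samples, and 57.4% ± 2.59 in NTera-2 siSOX2 and 24.1% ± 3.68 in NTera-2 NC samples. By dCt, the line that placed miR-375 higher after knock-down was 2102Ep on card A and NTera-2 over both cards. By raw Ct over both cards it was 2102Ep. The mean place by raw Ct was 103.0 in 2102Ep siSOX2 and 286.7 in 2102Ep NC samples, and 151.0 in NTera-2 siSOX2 and 307.3 in NTera-2 NC samples.

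**Figure D3:**
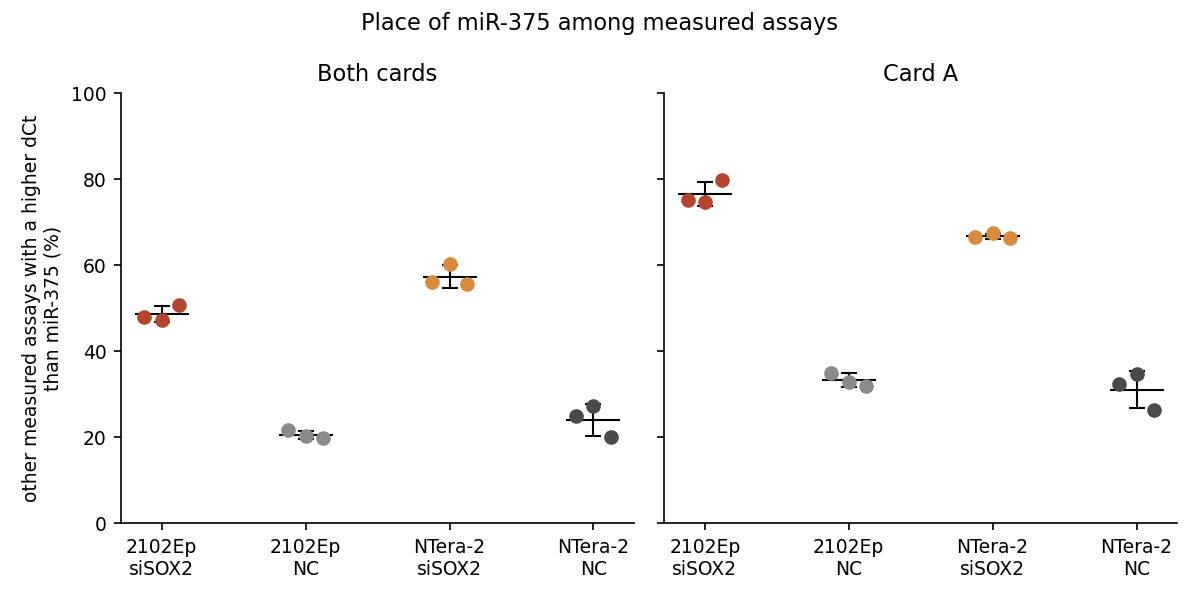
Share of the other measured assays with a higher dCt (less RNA) than miR-375, in percent, over both cards (left) and within card A (right). Points are samples, with mean and SD (n = 3). Each siSOX2 group stands above its NC group in both panels, and the order of the siSOX2 groups turns between the panels.

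The levels of the lines were compared with a test, since the choice of miR-375 did not use that contrast. That choice did use the siSOX2 and NC values compared here, so the p-values for miR-375 are descriptive. Values were set relative to the global mean of the card, taken within an arm over assays with a value in each of its 6 samples. In NC samples miR-375 lay at -1.96, -1.80 and -2.48 in NTera-2 and at -1.59, -1.73 and -1.78 in 2102Ep cells. The mean was -2.08 ± 0.36 in NTera-2 and -1.70 ± 0.10 in 2102Ep cells (SD, n = 3 each), a difference of -0.38 with a 95% interval of -1.03 to 0.27. The groups stood side by side without overlap, and the difference did not pass the test (limma, two-sided, Benjamini-Hochberg adjusted p = 0.25 over 384 assays). By the same test 39.3% of assays were higher and 32.6% lower in NTera-2 NC than in 2102Ep NC samples.

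In siSOX2 samples the same values were 0.82, 0.99 and 0.62 in NTera-2 and 1.94, 1.86 and 2.28 in 2102Ep cells. The mean was 0.81 ± 0.19 in NTera-2 and 2.03 ± 0.22 in 2102Ep cells (SD, n = 3 each). The difference was -1.22 with a 95% interval of -1.77 to -0.66 (limma, two-sided, adjusted p = 0.0033 over 384 assays), so that knock-down cells of NTera-2 held less miR-375 than those of 2102Ep on this scale. By the global median the difference was -0.78 with a 95% interval of -1.46 to -0.10 (limma adjusted p = 0.042). Here 41.1% of assays were higher and 32.8% lower in NTera-2, and a line difference past the test was common. This difference is the sum of the difference in NC samples and the unequal response, and is no separate measurement of that response. Its p-value is no test of that response either.

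The distance between the lines depended on the reference. By deposited dCt it was -5.04 in siSOX2 samples (limma adjusted p = 1.5e-06) and -4.04 in NC samples (limma adjusted p = 1e-05). On that scale 365 of 384 assays passed as lower in NTera-2 in siSOX2 samples, and 362 in NC samples. The median line difference over both cards was -5.64 in siSOX2 and -5.35 in NC samples, and on card A it was -3.69 and -3.50. These p-values thus do not set miR-375 apart from other assays. The constant of card A was 14.69 ± 0.20 in NTera-2 siSOX2 and 18.20 ± 0.26 in 2102Ep siSOX2 samples, and 14.69 ± 0.30 in NTera-2 NC and 18.23 ± 0.14 in 2102Ep NC samples (SD, n = 3 each). The mean Ct of the card A assays behind the global mean was 24.54 ± 0.18 in NTera-2 siSOX2 and 24.23 ± 0.34 in 2102Ep siSOX2 samples, and 24.34 ± 0.38 in NTera-2 NC and 24.22 ± 0.09 in 2102Ep NC samples. The constants thus differed between the lines by several cycles while the average card A assay differed by less than 1.

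Set against the median assay of card A, which cancels any reference, the line difference of miR-375 (NTera-2 minus 2102Ep) was -1.35 in siSOX2 and -0.54 in NC samples. Of the 233 card A assays tested, 32.2% had a more negative line difference in siSOX2 and 41.6% in NC samples. The order of the groups by raw Ct was 2102Ep siSOX2 (22.20 ± 0.15), NTera-2 siSOX2 (23.73 ± 0.01), 2102Ep NC (25.92 ± 0.19) and NTera-2 NC (26.42 ± 0.47), and the last pair overlapped. By dCt, 2102Ep NC moved above NTera-2 siSOX2.

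**Figure D4:**
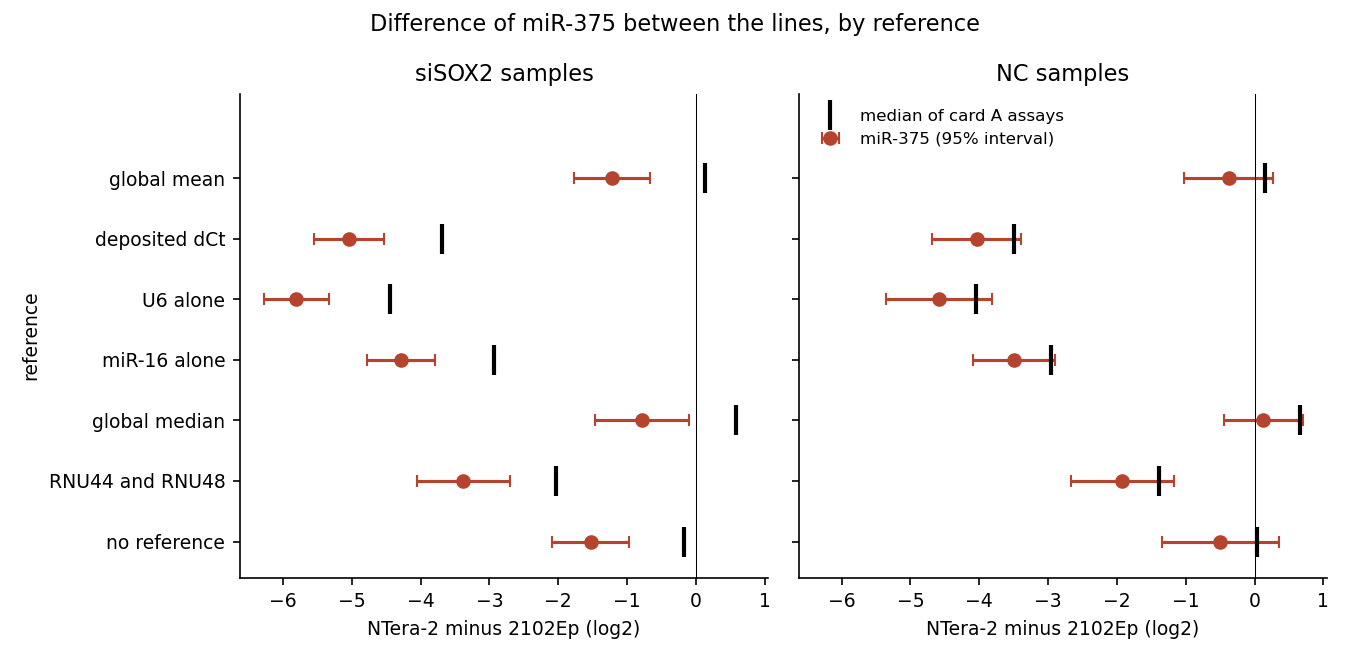
Difference of miR-375 between the lines, NTera-2 minus 2102Ep on the log2 scale, for siSOX2 (left) and NC samples (right) under each reference. Points are miR-375 with the 95% interval of the limma fit, and black ticks are the median of the card A assays, which shifts with the reference by the same amount as miR-375.

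The 5 assays whose pattern was most like that of miR-375 were found by Pearson correlation of dCt over the 12 samples after the mean of each line was taken out, among 368 assays measured in all samples. The correlations are descriptive, and share the arms, the cards and the constants of the samples. They are shown with their seeds, which are all different from that of miR-375.
miR-1269 (miR-1269a): cUGGACUGagccgugcuacugg
miR-24 (miR-24-3p): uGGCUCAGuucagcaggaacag
miR-139-5p: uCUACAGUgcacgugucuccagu
miR-149 (miR-149-5p): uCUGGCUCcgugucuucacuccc
miR-9* (miR-9-3p): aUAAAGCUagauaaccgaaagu

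None is encoded beside MIR375. miR-1269a lies at chr4:66276890-66276911 (plus strand), miR-139-5p at chr11:72615102-72615124 (minus strand), and miR-149-5p, on the same chromosome as MIR375, at chr2:240456015-240456037 (plus strand). miR-24-3p comes from a copy on chromosome 9 and a copy on chromosome 19, and miR-9-3p from copies on chromosomes 1, 5 and 15.

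miR-1269 was the nearest (r = 0.90), with a dCt of 2.70 to 3.25 in 2102Ep siSOX2 and 3.98 to 4.38 in 2102Ep NC samples, and of 8.88 to 9.32 in NTera-2 siSOX2 and 9.38 to 10.06 in NTera-2 NC samples. miR-24, a widely expressed miRNA, followed (r = 0.89), then miR-139-5p (r = 0.84), miR-149 (r = 0.83) and miR-9*, the minor strand of a neural miRNA (r = 0.81). In 2102Ep cells the arms of all 5 stood apart. In NTera-2 cells the arms of miR-1269, miR-139-5p and miR-149 stood apart by at most 0.17 cycles and those of miR-24 and miR-9* overlapped.

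The size of the difference set miR-375 apart from them. miR-9* differed by 2.26 in 2102Ep but by 0.12 in NTera-2 cells. For miR-139-5p the difference was 1.88 in 2102Ep but 0.46 in NTera-2 cells. miR-1269 differed by 1.31 in 2102Ep and 0.66 in NTera-2 cells, miR-24 by 0.97 and 0.30, and miR-149 by 0.63 and 0.20. In NTera-2 cells each differed by under 1 log2 unit, where miR-375 differed by 2.68.

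Other miRNAs known from islets or beta cells were set beside miR-375 from a list of 30 names, of which 27 were found among the assays by exact name. miR-124 was missed in this way, as its assay is named miR-124a, and the counts and medians below leave it out. It differed by -0.18 in 2102Ep (limma adjusted p = 0.76) and by -0.98 in NTera-2 cells (limma adjusted p = 0.072), and passed in neither. Of the 26 tested in 2102Ep cells, 2 rose, 5 fell and 19 did not pass the test (limma, adjusted p under 0.05 over all 431 assays). Of the 26 tested in NTera-2 cells, 1 rose, 1 fell and 24 did not pass. With the replicate number as a block 1 rose there and 0 fell. With RNU44 and RNU48 as the reference 2 rose and 2 fell in 2102Ep, and without 2102Ep NC replicate 1, 3 rose and 2 fell, so the excess of falls was not stable. Over all assays 4.64% rose and 9.51% fell in 2102Ep, and 1.77% rose and 3.77% fell in NTera-2 cells. The median difference of the list was -0.23 in 2102Ep, where that of all assays was -0.003, and -0.20 in NTera-2, where that of all assays was -0.27. In neither line did a list member reach the difference of miR-375, the highest being 2.33 in 2102Ep and 1.25 in NTera-2 cells.

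In 2102Ep cells the members that rose were miR-30d and miR-24. miR-30d, which has been tied to insulin production in mouse beta cells, had a dCt of 1.23, 1.57 and 1.48 in siSOX2 samples, against 3.05, 3.58 and 4.65 in NC samples, a rise of 2.33 (limma adjusted p = 0.0080). miR-24, which is abundant in mouse islets, had a dCt of 2.69, 2.76 and 2.26 in siSOX2 samples, against 3.48, 3.64 and 3.48 in NC samples, a rise of 0.97 (limma adjusted p = 0.012). Neither group overlapped its control, and both calls were kept under each alternative that gave a value.

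The members that fell in 2102Ep cells were miR-148a, miR-182, miR-184, miR-26a and miR-96. miR-148a, known from mouse beta cells as a support of insulin expression, had a dCt of 2.84, 3.27 and 3.68 in siSOX2 samples, against 1.77, 1.33 and 1.11 in NC samples, a change of -1.86 (limma adjusted p = 0.0023). miR-96 and miR-182 belong to 1 cluster known from sensory cells, and changed by -2.999 (limma adjusted p = 0.022) and -1.06 (limma adjusted p = 0.015). For miR-96 dCt was 14.91, 17.13 and 13.87 in siSOX2 samples, against 12.44, 12.59 and 11.88 in NC samples. Its raw Ct reached 35.05 in siSOX2 samples, and the filter at a mean raw Ct of 32 left it out. miR-26a changed by -0.79 (limma adjusted p = 0.023). The call of miR-148a was kept under each of 16 alternatives. That of miR-96 was lost without NC replicate 1 (limma adjusted p = 0.057) and without NC replicate 3 (0.083), and with the 6 samples of the line fitted alone (0.058). That of miR-182 was lost without NC replicate 1 (0.063) and without siSOX2 replicate 3 (0.053), and with RNU44 and RNU48 (a difference of -0.71, adjusted p = 0.11 by limma). That of miR-26a was lost without any 1 of the samples other than NC replicate 3, with an adjusted p of up to 0.089, with U6 alone (0.063), and with RNU44 and RNU48 (a difference of -0.44, adjusted p = 0.24 by limma).

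miR-184, which in mouse islets falls as beta cells expand, was the member that passed in both lines, in opposite directions. In 2102Ep cells its dCt was 5.24, 5.41 and 5.30 in siSOX2 samples, against 4.67, 4.61 and 4.43 in NC samples, a change of -0.74 (limma adjusted p = 0.018). In NTera-2 cells its dCt was 10.90, 10.86 and 10.83 in siSOX2 samples, against 11.90, 12.28 and 12.17 in NC samples, a change of 1.25 (limma adjusted p = 0.0024). The fall in 2102Ep cells did not pass without NC replicate 3 (limma adjusted p = 0.077), without siSOX2 replicate 2 (0.055), by the global mean (0.055) or with RNU44 and RNU48 (a difference of -0.39, adjusted p = 0.37). The rise in NTera-2 cells did not pass with RNU44 and RNU48 either (limma adjusted p = 0.056).

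miR-7, which is strongly enriched in islets and here read by an assay named for the fly sequence, went the other way from miR-375. In NTera-2 cells its dCt was 8.88, 8.21 and 8.56 in siSOX2 samples, against 7.38, 7.10 and 7.63 in NC samples, a change of -1.18 (limma adjusted p = 0.026). With the replicate number as a block the adjusted p was 0.054, and the fits without any 1 sample other than siSOX2 replicate 2 gave 0.058 to 0.098. By the global mean the difference was -0.67 (limma adjusted p = 0.28). In 2102Ep cells the difference was -0.33 (limma adjusted p = 0.51). The miR-200 family members miR-200a, miR-200b and miR-200c, of epithelial cells, lay between -0.85 and -0.28 in the lines and did not pass.

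**Figure D5:**
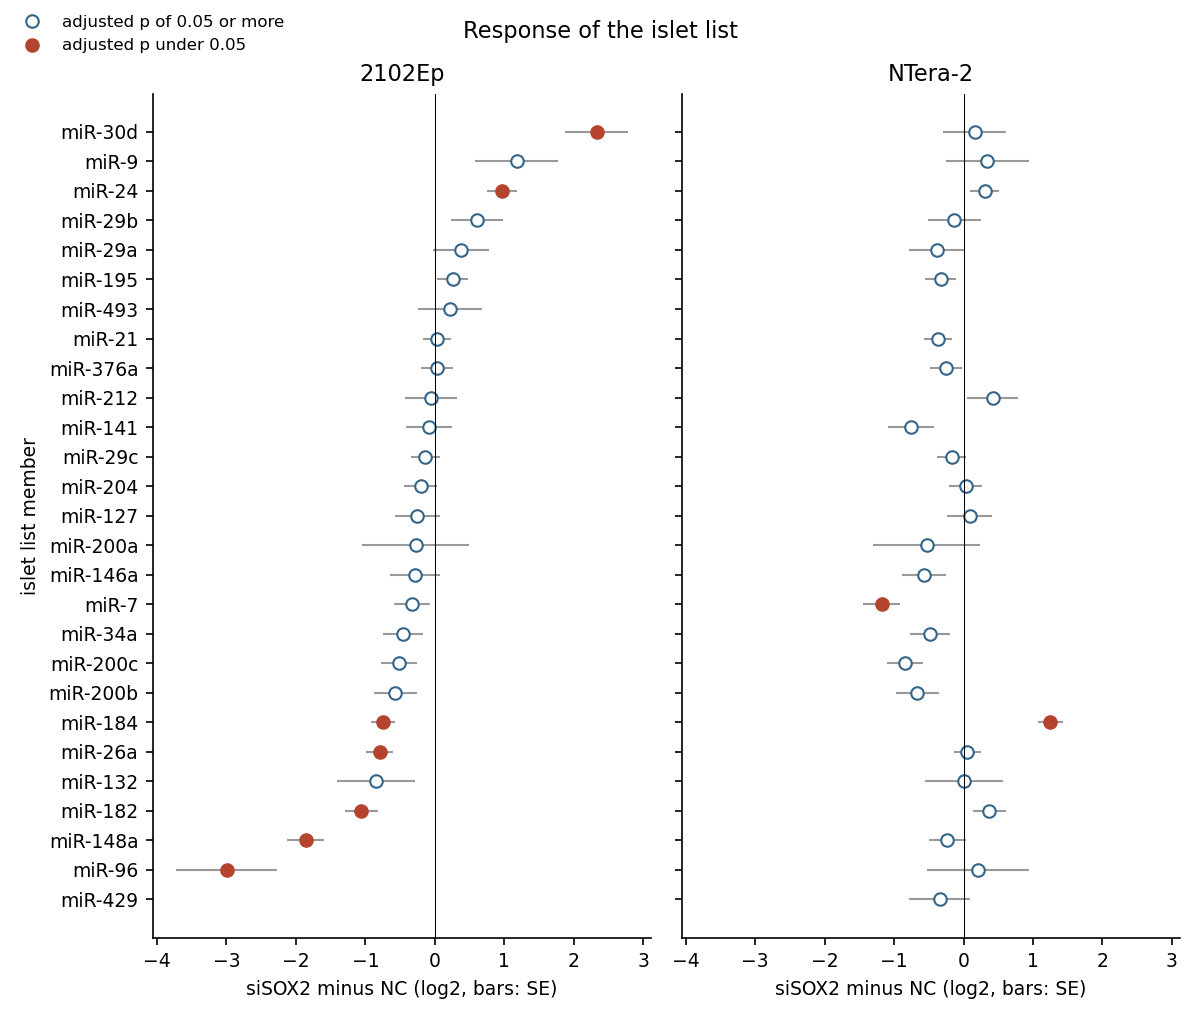
Difference between siSOX2 and NC samples on the log2 scale for the 27 assays of the islet list in 2102Ep (left) and NTera-2 cells (right), with SE bars. Filled points had an adjusted p under 0.05 (7 in the left panel, 2 in the right), and no point reaches the 3.69 and 2.68 of miR-375.

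Markers of the lines and of other cell types gave the setting. All 8 miRNAs of pluripotent cells, from the clusters of miR-302 and miR-371, were measured. The summed level (log2 of the sum of 2 to the power of minus dCt) of the 7 on card A was 3.42 to 3.46 in 2102Ep siSOX2 and 3.38 to 3.74 in 2102Ep NC samples, and 1.36 to 1.41 in NTera-2 siSOX2 and 1.64 to 1.70 in NTera-2 NC samples, each line on its own constants. None of the 8 passed in 2102Ep, and in NTera-2 cells miR-372 changed by -1.40 (limma adjusted p = 0.026, and 0.064 with the replicate block). That call was also lost without NC replicate 2 or 3 or siSOX2 replicate 1 or 2 (0.061 to 0.098). Of 7 miRNAs of exocrine pancreas, liver and gut, 3 were on hand and none passed in either line. Of 4 blood miRNAs, 2 were on hand and none passed. Of 4 mesenchymal miRNAs, 2 were on hand, miR-143 and miR-145. In 2102Ep cells their log2 summed level was -3.64 to -3.11 in the siSOX2 samples where any was measured and -4.89 to -4.38 in NC samples. NTera-2 cells gave values for miR-145 alone, at a log2 level of -9.19 to -8.91 in siSOX2 and -10.98 to -10.10 in NC samples. By the test this rise of miR-145, of smooth muscle, was 1.49 (limma adjusted p = 0.012, and 0.069 with the replicate block). In 2102Ep cells miR-143, with a difference of 3.48, had a limma adjusted p of 0.081, and of 0.020 with the replicate block. Their part in the level of miR-375 was not tested.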

How the data were processed

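MiRNA levels had been measured on TaqMan cards in 12 samples. The authors deposited raw Ct and dCt, both on the log2 scale. The authors exported raw Ct from DataAssist, and obtained dCt as raw Ct less a constant for each card of each sample. A deposited table of the authors' fold changes and p-values was not used. Raw Ct of 2102Ep siSOX2 replicate 3 was displaced by 1 row in part of its column and was set back where raw Ct minus dCt matched the constant (99.7% of 339 values, tolerance 0.02 cycles). Values with a dCt and a raw Ct below 40 counted as measured, in 420 to 451 assays per sample.

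Assays measured in at least 2 of 3 samples per arm were tested with limma 3.58.1 (R 4.3.3, lmFit and eBayes) on minus dCt with 4 group means. The lines were compared within an arm on values set to the global mean per card. P-values were adjusted by Benjamini-Hochberg over all assays tested, with a threshold of 0.05, and measure the spread between the labelled biological replicates. An exact permutation test of 3 against 3 cannot go below p = 0.1 and was not used. The fits were checked on artificial data of known answer.

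The replicate numbers were checked by the correlation of deviations from the group means. Same-numbered siSOX2 and NC samples correlated at 0.12, 0.27 and 0.16 in NTera-2 cells, all over 0.1, so the samples of that line may be paired. The main fits left this pairing out, and the replicate block was run as an alternative. With the block miR-7, miR-145 and miR-372 did not pass in NTera-2 cells (limma adjusted p of 0.054, 0.069 and 0.064), while miR-184 did (0.038). In 2102Ep cells the same-numbered samples correlated at 0.16, 0.17 and 0.06, the last below 0.1. Differently numbered samples reached at most 0.04 in 2102Ep and 0.05 in NTera-2 cells, so the 2102Ep samples may be paired as well.

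Named were miR-375, its reference RNAs, the 5 assays most like it, its neighbours by difference, and members of the islet list. miR-375 and the lists were chosen with earlier results of these data known. Alternatives were other references, filters on Ct, a trend, a replicate block and leaving out each sample. miR-16 alone as the reference was added after the data were seen.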

Additional observations from a re-analysis of the deposited data

Results flagged for a closer look

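The response to SOX2 knock-down differed between the lines for 3 of the 25 islet list members checked. This rests on the interaction term of the limma fit over 384 assays, of which 4.43% passed. miR-184 differed by 2.00 (NTera-2 minus 2102Ep, SE 0.25, limma adjusted p = 0.0019), from changes of 1.25 (NTera-2) and -0.74 (2102Ep). It passed in each of 5 alternatives, with a limma adjusted p of 0.0013 to 0.040. These were other references and a trend, and the term was not fitted with a replicate block or with samples left out. miR-148a differed by 1.63 (SE 0.38, limma adjusted p = 0.040), from changes of -0.23 (NTera-2) and -1.86 (2102Ep). miR-182 differed by 1.43 (SE 0.34, limma adjusted p = 0.040), from changes of 0.37 (NTera-2) and -1.06 (2102Ep). The calls of miR-148a and miR-182 were lost with U6 alone (adjusted p of 0.080 and 0.10) and with RNU44 and RNU48 (0.11 and 0.12). The same term for miR-375 was not tested, as it was chosen for its responses.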

How the results depend on the processing

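miR-375 was higher in siSOX2 than in NC samples of both lines under every reference and with each sample left out, where the difference was 3.58 to 3.81 in 2102Ep, and 2.52 to 2.83 in NTera-2 cells. With RNU44 and RNU48 it was 4.04 in 2102Ep cells, and the excess of 2102Ep over NTera-2 was 1.46, against 0.86 to 1.16 with each sample left out. The replicate block left the differences at 3.69 and 2.68. Between the lines, the difference in NC samples was -0.18 to -0.52 with each sample left out and did not pass, 0.13 by the global median (reversed, limma adjusted p = 0.64), and passed at -4.04 by deposited dCt, -4.58 with U6 alone, -3.49 with miR-16 alone and -1.92 with RNU44 and RNU48. In siSOX2 samples it was -0.78 by the global median to -5.80 with U6 alone, and -1.09 to -1.31 with each sample left out. It passed in each of 14 alternatives, but these p-values are descriptive, as the choice of miR-375 used these values. By deposited dCt 371 of 384 assays passed in siSOX2 and 369 in NC samples. With U6 alone 227 and 220 of 233 passed, and with miR-16 alone 211 and 206 of 233. Passing under these references thus says little of miR-375. The mean place of miR-375 was 103.0 in 2102Ep siSOX2, 286.7 in 2102Ep NC, 151.0 in NTera-2 siSOX2 and 307.3 in NTera-2 NC by raw Ct, and 61.7, 176.7, 85.7 and 176.3 in the same order of groups within card A, against 219.7, 342.0, 192.3 and 342.0 over both cards by dCt. The causes were not tested. Of the islet list, 4 members passed in 2102Ep with RNU44 and RNU48 (2 higher, 2 lower), 6 with the replicate block, which lost miR-184 (limma adjusted p = 0.060), and 5 to 6 with 1 sample left out (3 higher and 2 lower without NC replicate 1). In NTera-2 cells 1 passed with U6 alone, the global mean, the global median, the 6 samples alone and the replicate block, 0 with RNU44 and RNU48, and 1 to 2 with 1 sample left out. Of the 5 assays most like miR-375, 4 stayed by Spearman correlation and 4 by the global mean. Ct carries no count of molecules, so the number of samples limits the precision.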
